A study of Mus musculus with 14 samples.

Results

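The transcripts of 10 genes that make, hold and receive transforming growth factor beta (TGF-beta) were followed in hearts with a respiratory chain defect. They were taken by name from both deposited tables, which list 42396 genes each: the ligands Tgfb1, Tgfb2 and Tgfb3, the receptors Tgfbr1, Tgfbr2 and Tgfbr3, and the latent binding proteins Ltbp1, Ltbp2, Ltbp3 and Ltbp4. All 10 exceeded 1 CPM (the deposited counts scaled to the library's TMM-normalised size) in each of the 14 libraries. RNA had been sequenced from whole hearts of 14 female FS6KD mice, homozygous for a gene-trap allele that lowers Ndufs6, a subunit of complex I, on a mixed C57BL/6J and 129/Ola background. The knockout experiment set 4 Atf3-/-FS6KD hearts against 4 from Atf3+/+FS6KD mice at 12 weeks of age, the Atf3 allele being a large CRISPR-Cas9 deletion across exons 2 to 4 carried by offspring of intercrossed founders. In the AAV experiment, 3 hearts labelled shCtrl and 3 labelled shAtf3 were compared 12 weeks after neonatal FS6KD mice had received MyoAAV2, a muscle-directed adeno-associated virus encoding a short hairpin RNA against Atf3 or a control hairpin. The promoter that drove the hairpin is not given in the sources used here. Atf3 encodes a stress-induced transcription factor of the ATF/CREB family, and its deletion or knockdown is what the labels set against controls in both experiments.

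TGF-beta ligands are secreted in an inactive form, folded with their own propeptide and often tethered by a latent binding protein (LTBP) to fibrillin microfibrils of the extracellular matrix. Proteases, integrins and thrombospondins release the ligand, which binds the type II receptor Tgfbr2. That receptor then phosphorylates the type I receptor Tgfbr1, and Smad2 and Smad3 carry the signal to the nucleus. In the heart the pathway is best known for turning fibroblasts into matrix-producing cells and for its part in valve development. Ltbp2 is the exception among the LTBPs in that it does not bind the ligands and sits on microfibrils instead.

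The start regions of 3 LTBP genes are shown because Ltbp2 and Ltbp3 were called lower in the AAV experiment, whereas Ltbp1, which was not, has the element that ATF/CREB factors classically bind. Each window runs from 250 bases before to 50 after a RefSeq start on GRCm38.p6. Ltbp1 lies at chr17:75005279-75005578 (plus strand), Ltbp2 at chr12:84876442-84876741 (minus strand) and Ltbp3 at chr19:5740650-5740949 (plus strand). Capitals mark the cyclic AMP response element TGACGTCA, the AP-1 site TGACTCA or its reverse complement TGAGTCA, and the short SMAD box CAGAC or its reverse complement GTCTG, searched on both strands.
Ltbp1: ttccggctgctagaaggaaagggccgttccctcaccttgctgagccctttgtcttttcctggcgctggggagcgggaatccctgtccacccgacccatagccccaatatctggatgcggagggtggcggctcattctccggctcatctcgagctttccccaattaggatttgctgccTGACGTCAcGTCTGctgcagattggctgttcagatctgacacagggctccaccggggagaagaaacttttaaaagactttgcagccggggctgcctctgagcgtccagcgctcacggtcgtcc
Ltbp2: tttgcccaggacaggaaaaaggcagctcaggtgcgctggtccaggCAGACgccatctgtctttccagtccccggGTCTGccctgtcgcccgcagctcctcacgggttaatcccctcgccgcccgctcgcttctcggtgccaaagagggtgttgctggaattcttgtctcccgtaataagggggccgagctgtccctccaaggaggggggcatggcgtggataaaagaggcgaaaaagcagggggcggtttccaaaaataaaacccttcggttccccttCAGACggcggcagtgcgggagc
Ltbp3: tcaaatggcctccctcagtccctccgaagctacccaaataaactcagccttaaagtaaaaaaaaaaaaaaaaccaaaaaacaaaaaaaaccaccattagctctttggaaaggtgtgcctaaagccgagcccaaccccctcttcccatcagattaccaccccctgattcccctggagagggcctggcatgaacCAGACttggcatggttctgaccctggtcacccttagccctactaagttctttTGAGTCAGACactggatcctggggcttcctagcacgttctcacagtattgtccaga
Windows were found for 8 of the 10 genes, 12 windows in all, and Tgfb3 and Tgfbr3 had none. TGACGTCA stood in 1 of the 12, the window of Ltbp1 printed above, 73 bases upstream of the start, and in 1.79% of 32851 windows of all genes. Ltbp1 has a second window, at chr17:75178531-75178830 (plus strand), which holds no TGACGTCA. The AP-1 site stood in 1, that of Ltbp3, 6 bases upstream of the start, where its last bases overlap a SMAD box, and in 5.20% of all windows. A SMAD box stood in 7 of the 12 and in 49.6% of all windows, and 3 lay in the Ltbp2 window. These matches describe the letters only, and no binding was measured.

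Atf3 itself was not lower in the groups labelled for its loss. It was at 25.8, 6.89, 6.91 and 6.36 CPM in the libraries labelled Atf3+/+FS6KD and at 25.6, 37.6, 22.7 and 14.3 CPM in those labelled Atf3-/-FS6KD. Atf3 was at 10.1, 13.3 and 14.1 CPM in the libraries labelled shCtrl and at 21.2, 12.1 and 16.5 CPM in those labelled shAtf3. Neither difference passed the test (edgeR adjusted p = 0.480 and 0.420), and because counts are per gene, reads from the part of Atf3 left by the deletion cannot be told apart. The column names of the AAV table also read the other way round from the sample labels. Group names below stand for the libraries so labelled, and every direction is that of the labels: exchanging the 2 AAV labels would turn the sign of each AAV value. Ndufs6 stayed between 2.34 and 3.79 CPM in all 14 libraries. Total counts were 30085432 to 134920825 per library, and replicates 3 and 4 of the knockout experiment were the deepest. Values within replicates 1 and 2 and within replicates 3 and 4 are therefore given where they bear on a result. Totals also separated the AAV groups, at 38147825 to 40534913 in shCtrl and 30085432 to 34386778 in shAtf3. The part of depth in the AAV values was not tested. All 8 cardiomyocyte markers were above 1 CPM, together 53645 to 76949 CPM, whereas 3 of 6 atrial markers, Sln, Myl7 and Bmp10, were at or below 1 CPM in every library. The other 3 had lower means in shAtf3: Dkk3 was called (log2 fold change -1.06 ± 0.16, edgeR adjusted p = 0.0299), while Nppa (-1.06 ± 0.34, 0.247) and Myl4 (-0.33 ± 0.18, 0.484) were not. The p-values measure the spread between libraries labelled as replicates.

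Levels were compared between genes as CPM per kilobase of the principal transcript. Ltbp4 stood first in all 4 groups, at 84.0 ± 19.3 in Atf3+/+FS6KD, 86.5 ± 18.3 in Atf3-/-FS6KD, 91.1 ± 10.9 in shCtrl and 71.8 ± 3.72 in shAtf3 (SD, n = 4, 4, 3 and 3). Tgfbr2 came next at 22.4 to 26.7 CPM per kilobase (group means), and its libraries overlapped with those of no neighbour in this order. Tgfb2 came last, at 2.54 to 3.46 CPM per kilobase. The 7 others lay between, at group means of 3.30 to 13.98. In Atf3+/+FS6KD they ran in the order Tgfb1, Ltbp1, Ltbp3, Tgfb3, Tgfbr3, Tgfbr1 and Ltbp2, and of the neighbours in that order Tgfbr3 and Tgfbr1 alone had ranges that did not overlap. In shAtf3, by contrast, overlap was limited to Tgfbr3 with Ltbp1 and Ltbp1 with Ltbp3, and Ltbp2 stood in the ninth place there and in the sixth in shCtrl. The order changed when length was taken as all merged exons, where Tgfb1 moved from the third to the sixth place in Atf3+/+FS6KD. First and second place were the same under both lengths in all 4 groups. Ltbp4 thus made up 74.3% to 76.6% of the summed LTBP level per kilobase (group means), and 79.8% to 83.2% with merged exons. Tgfbr2 made up 61.8% to 64.2% of the receptor sum by principal transcript but 43.0% to 45.5% with merged exons, where Tgfbr3 made up 31.9% to 37.3%.

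Among the ligands, Tgfb3 was lower in the libraries labelled shAtf3, and the others were not called. Tgfb3, the isoform known from palate development, was at 39.0, 38.4 and 35.5 CPM in shCtrl and at 25.04, 21.6 and 27.4 CPM in shAtf3. All 3 shAtf3 libraries lay below all 3 shCtrl libraries. The log2 fold change was -0.61 ± 0.09 (SE), a level 1.53-fold lower (edgeR adjusted p = 0.0328). The call was lost when any library but shCtrl replicate 3 was left out (adjusted p 0.0651 to 0.159), at log2 fold changes of -0.69 to -0.51. In the libraries of the knockout experiment Tgfb3 was at 30.8, 24.6, 33.5 and 28.2 CPM in Atf3+/+FS6KD and at 32.2, 37.7, 42.6 and 30.5 CPM in Atf3-/-FS6KD. These groups overlapped, and the log2 fold change of 0.29 ± 0.13 did not pass (edgeR adjusted p = 0.487). It was 0.19 without Atf3-/-FS6KD replicate 3, 0.34 within replicates 1 and 2 and 0.24 within replicates 3 and 4.

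Tgfb1, the isoform most tied to fibrosis and immune control, passed no test. It was at 25.5, 23.5 and 25.8 CPM in shCtrl and at 25.4, 23.0 and 26.9 CPM in shAtf3, with a log2 fold change of 0.01 ± 0.08 (edgeR adjusted p = 0.982). Its 95% interval ran from -0.17 to 0.19. Across genotypes it ranged from 23.3 to 31.2 CPM in Atf3+/+FS6KD and from 24.2 to 34.7 CPM in Atf3-/-FS6KD (log2 fold change 0.19 ± 0.13, edgeR adjusted p = 0.636, and 0.12 to 0.28 when single libraries were left out). Tgfb2, the isoform of the embryonic valve cushions, was at 17.1, 16.2 and 13.2 CPM in shCtrl and at 11.7, 13.7 and 13.5 CPM in shAtf3. These values overlapped through the lowest shCtrl library (log2 fold change -0.26 ± 0.11, edgeR adjusted p = 0.392). Tgfb2 was at 14.4 to 17.2 CPM in Atf3+/+FS6KD and at 12.3 to 24.7 CPM in Atf3-/-FS6KD, where replicate 2 was the highest. Its log2 fold change of 0.17 ± 0.18 became -0.03 without that library and was -0.05 within replicates 3 and 4. Tgfb2 and Atf3 lie 4.46 Mb apart on chromosome 1, and 11 of 74 genes within 10 Mb of Atf3, or 14.9%, had an unadjusted p below 0.05 in the knockout comparison, against 10.1% of all genes. In the AAV comparison these were 10 of 71, or 14.1%, against 12.7%.

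The ligand mixture followed these values. Of the summed ligand level per kilobase, Tgfb3 made up 43.4% ± 1.39 in shCtrl and 34.1% ± 1.41 in shAtf3 (SD, n = 3). Tgfb1 made up 44.8% ± 2.55 and 54.0% ± 0.58. Which of the 2 was the larger depended on the length used: over all merged exons Tgfb3 made up 59.3% ± 0.91 and 50.2% ± 1.97, and Tgfb1 26.4% ± 1.99 and 34.3% ± 0.50. The Tgfb3 share was lower in shAtf3 with both lengths. Between genotypes the Tgfb3 share was 36.0% ± 2.73 in Atf3+/+FS6KD and 37.7% ± 2.89 in Atf3-/-FS6KD (n = 4). The shares rest on the same counts as the tests above and were not tested again.

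**Figure D1:**
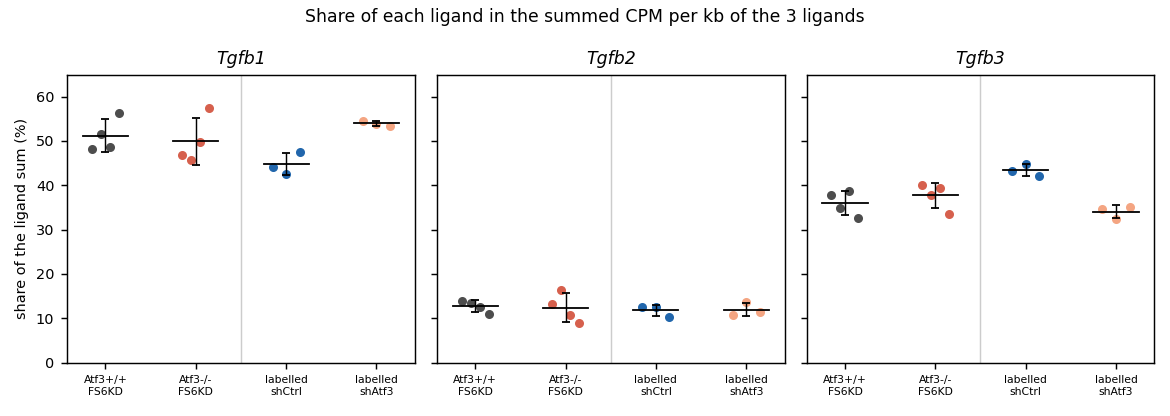
Share of Tgfb1, Tgfb2 and Tgfb3 in the summed CPM per kilobase of the 3 ligands (y axis, %) in each library (points), with the mean and SD of each group (lines). The Tgfb3 share was 42.1% to 44.9% in the libraries labelled shCtrl and 32.5% to 35.1% in those labelled shAtf3, and the knockout groups overlapped.

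No receptor was called in either experiment. Tgfbr1, the type I receptor kinase, was at 33.5, 37.2 and 28.7 CPM in shCtrl and at 28.7, 28.1 and 28.6 CPM in shAtf3. The groups did not overlap, but the lowest shCtrl library exceeded the highest shAtf3 library by less than the SD of shAtf3, 0.30 CPM (log2 fold change -0.22 ± 0.09, edgeR adjusted p = 0.374). Without shCtrl replicate 2 the log2 fold change was -0.13. Tgfbr1 was at 31.9, 29.6, 30.4 and 29.3 CPM in Atf3+/+FS6KD and at 31.6, 39.1, 34.2 and 33.6 CPM in Atf3-/-FS6KD. The log2 fold change was 0.19 ± 0.07 and did not pass (edgeR adjusted p = 0.433). Tgfbr2, the type II receptor kinase, ranged from 70.1 to 97.2 CPM over all 14 libraries and had log2 fold changes of 0.15 ± 0.09 in the knockout and -0.11 ± 0.07 in the AAV experiment (edgeR adjusted p = 0.583 and 0.570). Tgfbr3, or betaglycan, which presents ligand to Tgfbr2, ranged from 42.6 to 62.2 CPM and had log2 fold changes of -0.09 ± 0.11 and 0.06 ± 0.09 (edgeR adjusted p = 0.814 and 0.840). For these 2 receptors the 95% intervals stayed within -0.33 to 0.35 on the log2 scale in both experiments.

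Among the LTBPs, Ltbp2 and Ltbp3 were lower in the libraries labelled shAtf3, and Ltbp2 differed most of all 10 genes. Ltbp2, on chromosome 12 (84783212 to 84876532, GRCm38), was at 77.0, 69.3 and 43.9 CPM in shCtrl and at 25.8, 26.0 and 22.3 CPM in shAtf3. The shCtrl libraries spread widely, and the lowest of them still lay well above every shAtf3 library. The log2 fold change was -1.36 ± 0.18, a level 2.57-fold lower (edgeR adjusted p = 0.0293). Ltbp3, on chromosome 19 (5740904 to 5758532), a carrier of latent TGF-beta in bone, was at 60.3, 67.3 and 65.8 CPM in shCtrl and at 46.5, 45.5 and 48.1 CPM in shAtf3. The 2 groups were tight and did not overlap. Its log2 fold change was -0.47 ± 0.06, a level 1.38-fold lower (edgeR adjusted p = 0.0299). Both calls were lost without shCtrl replicate 2, or without shAtf3 replicate 1, 2 or 3, where the adjusted p was 0.107 to 0.159 for Ltbp2 and for Ltbp3. In those 4 fits 1 to 5 genes of all were called, in place of 82. The log2 fold changes in all leave-one-out fits were -1.57 to -1.20 for Ltbp2 and -0.51 to -0.43 for Ltbp3.

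Ltbp4, which assists elastic fibre assembly, was at 425, 538 and 509 CPM in shCtrl and at 379, 372 and 410 CPM in shAtf3. The groups did not overlap, the nearest libraries being 425 and 410 CPM. The log2 fold change of -0.34 ± 0.09 did not pass (edgeR adjusted p = 0.169), but did with DESeq2 (adjusted p = 0.0175) and with no filter on low counts (edgeR adjusted p = 0.0422). Ltbp1, the most studied carrier of latent TGF-beta, was at 39.9, 48.5 and 46.5 CPM in shCtrl and at 42.9, 45.6 and 49.2 CPM in shAtf3 (log2 fold change 0.03 ± 0.09, edgeR adjusted p = 0.923). The 95% interval of Ltbp1 ran from -0.17 to 0.23.

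In the knockout experiment none of the 4 LTBPs passed. Ltbp2 was at 19.2, 12.7, 39.2 and 16.003 CPM in Atf3+/+FS6KD and at 32.7, 43.2, 45.1 and 19.9 CPM in Atf3-/-FS6KD. Replicate 3 of Atf3+/+FS6KD stood at the level of the upper Atf3-/-FS6KD libraries and replicate 4 of Atf3-/-FS6KD at that of the lower Atf3+/+FS6KD libraries, so the groups overlapped. The log2 fold change was 0.68 ± 0.37 (edgeR adjusted p = 0.566), 1.13 without Atf3+/+FS6KD replicate 3, 1.25 within replicates 1 and 2 and 0.23 within replicates 3 and 4. Ltbp3 ranged from 42.3 to 67.0 CPM in Atf3+/+FS6KD and from 51.9 to 71.5 CPM in Atf3-/-FS6KD, Ltbp4 from 328 to 541 and from 329 to 561 CPM, and Ltbp1 from 39.5 to 66.8 and from 43.1 to 52.7 CPM. Their log2 fold changes were 0.17 ± 0.15, 0.04 ± 0.19 and -0.21 ± 0.15 (edgeR adjusted p = 0.724, 0.959 and 0.640). Within replicates 1 and 2 these were 0.35, 0.13 and -0.37, and within replicates 3 and 4 they were 0.04, -0.02 and -0.03. When single libraries were left out, Ltbp3 had 0.07 to 0.29 and Ltbp1 -0.35 to -0.11. The replicates with low Ltbp4 were number 1 in both genotypes, and the Ltbp4 spread within a genotype was wider than its difference between them.

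**Figure D2:**
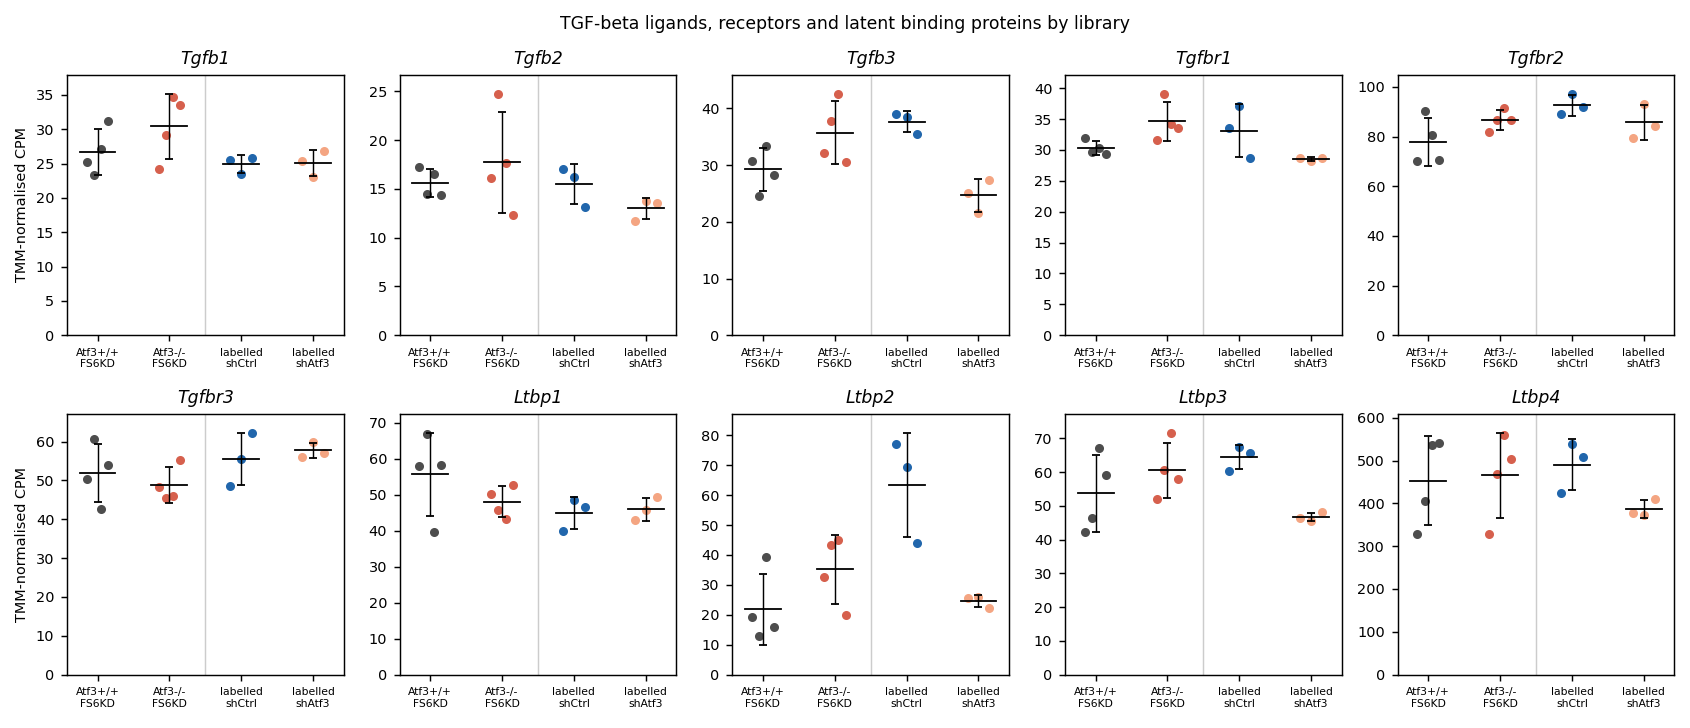
TMM-normalised CPM (y axis, from 0) of the 10 genes in each library (points, in replicate order), with the mean and SD of each group (lines). Ltbp2 was at 43.9 to 77.0 CPM in the libraries labelled shCtrl and at 22.3 to 26.0 CPM in those labelled shAtf3, and the knockout groups overlapped for every gene.

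Counted together, 3 of the 10 genes were called in the AAV experiment, where 0.539% of 15225 genes were called, and all 3 were lower in shAtf3, where 0.453% of all genes were called in that direction. DESeq2 called 4 of the 10, Ltbp4 with those 3, and 2.02% of all genes. At weaker criteria, 6 of the 10 had an unadjusted p below 0.05 (12.7% of all genes), 5 of the 10 had groups that did not overlap (18.4% of all genes), and all 5 were lower in shAtf3 (9.94%). The median log2 fold change of the 10 genes was -0.24, beside 0.00 for all genes tested. Between genotypes 0 of the 10 were called, and so were 0% of 15592 genes with edgeR. DESeq2 and limma called 0 of the 10 too, and DESeq2 called 1.33% of all genes. There, 2 of the 10, Tgfb3 and Tgfbr1, had an unadjusted p below 0.05 (10.1% of all genes), and 0 had groups that did not overlap (5.71%). The median log2 fold change was 0.17, beside 0.00 for all genes, with 8 of the 10 above 0.

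**Figure D3:**
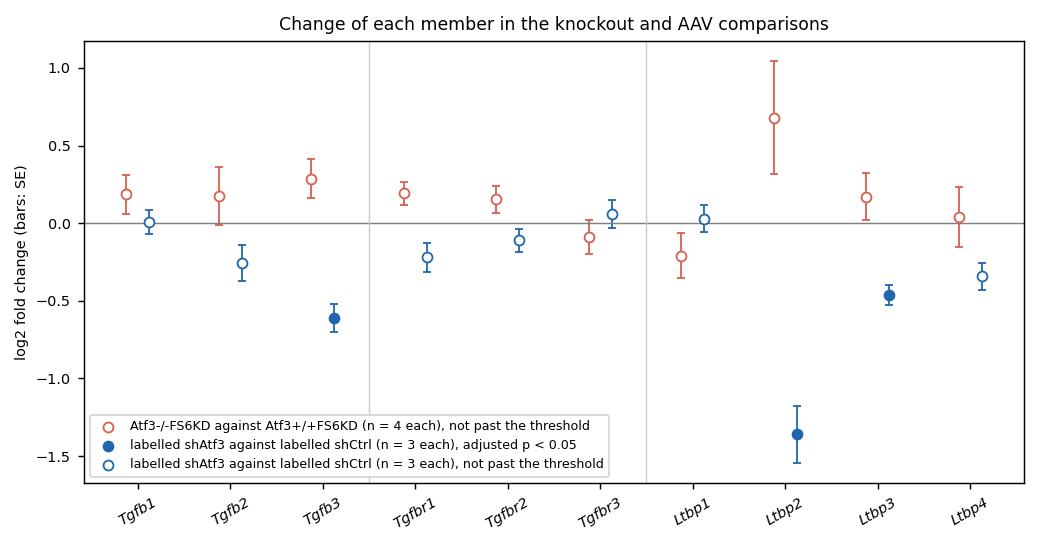
Log2 fold change (y axis) with its SE (bars) of each gene (x axis) in the knockout experiment (red) and in the AAV experiment (blue), filled where the edgeR adjusted p was below 0.05. Filled points are Tgfb3 at -0.61, Ltbp2 at -1.36 and Ltbp3 at -0.47 in the AAV experiment.

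Whether the 2 experiments differed was tested as an interaction, the knockout log2 fold change minus the AAV log2 fold change in a fit of all 14 libraries. None of the 10 genes passed, against 0.166% of 15708 genes, and 4 had an unadjusted p below 0.05, against 17% of all genes. The 4 were Tgfb3 (0.89 ± 0.18, edgeR adjusted p = 0.0599), Ltbp2 (2.03 ± 0.50, 0.0877), Tgfbr1 (0.41 ± 0.12, 0.113) and Ltbp3 (0.63 ± 0.20, 0.134). Each had a positive sign, as the knockout value was above 0 and the AAV value below it. With DESeq2 the adjusted p was 0.00068 for Tgfb3, 0.0194 for Ltbp2 and 0.0489 for Ltbp3, where it called 4.26% of all genes. For Tgfb3 it was also below 0.05 with edgeR without Atf3+/+FS6KD replicate 3 (0.0278) and without Atf3-/-FS6KD replicate 1 (0.0486) or 4 (0.0363), and for Ltbp2 without Atf3+/+FS6KD replicate 3 (0.0151). With the AAV labels exchanged, a setting added after the data were seen, the difference was -0.32 ± 0.18 for Tgfb3, -0.68 ± 0.49 for Ltbp2, -0.02 ± 0.12 for Tgfbr1 and -0.29 ± 0.20 for Ltbp3 (none passed with edgeR), so the sign and size of the 4 values rest on those labels.

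The genes around the 10 were grouped by role in 7 lists of 95 genes, of which 89 passed the filter. Of the 89, 14 were called in the AAV experiment, all lower in shAtf3, against 0.539% of all genes. The count was 0 without shAtf3 replicate 1 or 2, 2 without shAtf3 replicate 3 or shCtrl replicate 2, 10 without shCtrl replicate 1 and 30 without shCtrl replicate 3. The log2 fold changes moved less, for example -0.93 to -0.71 for Col1a1, -0.86 to -0.64 for Fn1 and -1.89 to -1.57 for Comp over these fits. Of 16 activators of latent TGF-beta, 3 were called lower in shAtf3 and 0 higher: the gelatinase Mmp2 (log2 fold change -0.86 ± 0.10, edgeR adjusted p = 0.0250), the integrin subunit Itgb5 (-0.47 ± 0.07, 0.0299) and the procollagen protease Bmp1 (-0.40 ± 0.07, 0.0415). Mmp14, a membrane protease that activates Mmp2, had -0.90 ± 0.25 (0.197), which became -0.48 without shCtrl replicate 1. Of 14 microfibril and matrix partners of LTBPs, 3 were called lower and 0 higher, and 13 were lower at an unadjusted p below 0.05, against 12.7% of all genes in either direction. The 3 were the microfibril protein Mfap4 (-1.15 ± 0.11, 0.0137), Adamtsl2, which binds Ltbp1 and fibrillin (-0.88 ± 0.10, 0.0235), and fibronectin, Fn1 (-0.78 ± 0.11, 0.0299). Elastin, Eln, had -1.07 ± 0.21 (0.0772).

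Signal transducers passed no test. Of 7, among them Smad2, Smad3 and Smad4, 0 were called and 0 had an unadjusted p below 0.05 in either experiment. Of all genes, 0.539% were called and 12.7% had such a p in the AAV experiment, and 0% and 10.1% in the knockout experiment. With only 7 genes, 0 cannot be told apart from these shares. The median log2 fold change of the 7 was 0.00 in the AAV and 0.02 in the knockout experiment. Acvrl1, an endothelial type I receptor of the family, had the smallest p of the 7 (AAV log2 fold change -0.15 ± 0.07, edgeR adjusted p = 0.455). Of 15 inhibitors, 1 was called lower in shAtf3, the collagen-binding proteoglycan Fmod (-1.43 ± 0.22, 0.0348), and 0 higher. Of all genes, 0.453% were called lower in shAtf3. Pmepa1, which sequesters Smad2 and Smad3 and is itself induced by the pathway, had -0.51 ± 0.11 (0.103). Of 20 target genes, 7 were called lower in shAtf3, against the same 0.453% of all genes, and 0 higher, with a median of -0.68. They were Comp (-1.72 ± 0.15, 0.0100), Postn, Ccn2 and the collagens Col1a1, Col1a2, Col3a1 and Col5a1 (log2 fold changes -1.14 to -0.65, adjusted p 0.0293 to 0.0463). Of the family's other ligands and receptors, 11 of 14 and 6 of 9 passed the filter and 0 were called, against 0.539% of all genes. Gdf15, a stress-induced ligand, had -1.82 ± 0.50 (0.193) at levels of only 1.89 ± 0.73 CPM in shAtf3 and 6.64 ± 4.96 in shCtrl (SD, n = 3). Its log2 fold change was -1.01 without shCtrl replicate 1.

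Between genotypes 0 of the 89 genes tested from these lists were called with edgeR and 9 with DESeq2, which called 208 of 15592 genes, or 1.33%. At an unadjusted p below 0.05 stood 20 of the 89, against 10.1% of all genes, among them 8 of the 20 target genes and 4 of the 14 microfibril partners, all 12 of these with higher means in Atf3-/-FS6KD. The medians were 0.38 for the microfibril partners, 0.28 for the target genes, 0.07 for the activators and 0.09 for the inhibitors. Groups did not overlap for 11 of the 89, against 5.71% of all genes, and each of the 11 had the higher mean in Atf3-/-FS6KD. Among the matrix genes these were Fn1 (0.61 ± 0.12, edgeR adjusted p = 0.253), Col3a1 (0.71 ± 0.13, 0.248), Col1a1 (0.63 ± 0.18, 0.368), the collagen crosslinker Lox (1.11 ± 0.28, 0.317), the microfibril protein Mfap2 (0.46 ± 0.14, 0.376), the fibrillin-binding Adamts10 (0.43 ± 0.12, 0.356) and Cthrc1, a secreted protein of collagen-producing cells (1.38 ± 0.34, 0.313, at only 1.07 ± 0.30 against 0.41 ± 0.20 CPM). The other 4 were Mmp2 (0.40 ± 0.09, 0.277), the integrin subunit Itgb3 (0.71 ± 0.18, 0.319), the ubiquitin ligase Smurf2 (0.23 ± 0.05, 0.278) and Inhba, an activin subunit (0.61 ± 0.18, 0.376). Bmp6 had means of 27.3 ± 2.98 CPM without Atf3 and 33.2 ± 3.51 CPM with it, by the labels (SD, n = 4, edgeR adjusted p = 0.422).

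**Figure D4:**
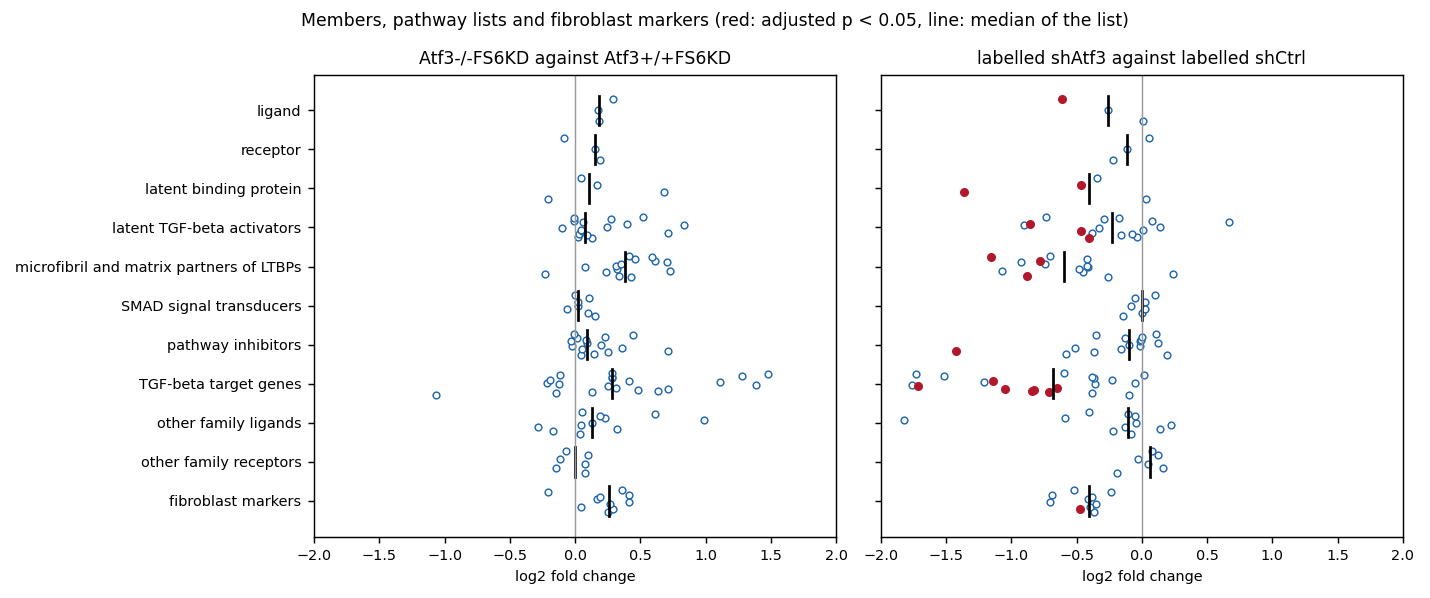
Log2 fold change (x axis) of each gene (points) of the 3 member roles, of the 7 pathway lists and of the fibroblast markers (rows), in the knockout experiment (left) and in the AAV experiment (right), with the median of each list (black line) and genes at an edgeR adjusted p below 0.05 in red. The median of the 20 target genes was 0.28 on the left and -0.68 on the right, and that of the 7 signal transducers 0.02 and 0.00.

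Markers of fibroblasts, which make much of the matrix of the heart, were examined beside these genes. All 10 had lower means in shAtf3, 8 without overlap (9.94% of all genes in that direction) and 1 (Dpt) called (0.453%), with a median log2 fold change of -0.40 and a summed level of 2989 to 3844 CPM in shCtrl and 2496 to 2686 CPM in shAtf3. None of the 10 was at or below 1 CPM in every library. Between genotypes 9 of the 10 were above 0, 1 (Pdgfra) did not overlap (5.71% of all genes in either direction) and 0 were called. The median was 0.26, with summed levels of 2264 to 3352 CPM in Atf3+/+FS6KD and 2832 to 3434 CPM in Atf3-/-FS6KD. Macrophage markers had lower means in shAtf3 for 7 of 8, 3 without overlap (9.94% of all genes in that direction) and 0 called (sums of 467 to 539 CPM in shCtrl and 424 to 473 CPM in shAtf3). Cardiomyocyte markers had higher means in shAtf3 for 8 of 8, 1 (Actc1) without overlap (18.4% of all genes in either direction) and 0 called (median 0.11). Between genotypes macrophage markers had higher means in Atf3-/-FS6KD for 7 of 8 (median 0.26, sums of 319 to 392 CPM against 347 to 505 CPM), and cardiomyocyte markers had lower means for 7 of 8 (median -0.14). Of the 8 cardiomyocyte markers 1, Tnnt2, did not overlap (-0.36 ± 0.08, edgeR adjusted p = 0.277), against 5.71% of all genes in either direction. The cardiomyocyte marker with a higher mean was Actc1 (0.47 ± 0.12, edgeR adjusted p = 0.317), and 0 of either list were called. Endothelial and mural cell markers, 8 each, had medians of 0.03 and -0.06 in the AAV experiment, with 0 called and 0 without overlap. Their medians between genotypes were 0.09 and 0.08, also with 0 called. Of 6 markers of valve and tendon-like tissue that passed the filter, 5 had lower means in shAtf3 with 0 called (median -0.39, summed levels of 76.0 to 168 CPM in shCtrl and 64.2 to 80.6 CPM in shAtf3), and Tnmd (-1.36) and Thbs4 (-1.23) did not overlap, 2 of 6 against 9.94% of all genes in that direction. The 3 atrial markers above the filter had a median of -1.06, with summed levels for the list of 281 to 808 CPM in shCtrl and 265 to 349 CPM in shAtf3. Nearly all of that sum was Nppa (means of 608 and 291 CPM), which the paper also names as a heart failure marker. Sln, Myl7 and Bmp10 were at or below 1 CPM throughout, and whether atrial content differed was not tested. The part of these markers in the LTBP and ligand values was not tested, and in whole hearts fewer cells of a type and less RNA per cell cannot be told apart.

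The 3 called genes were also set against the fibroblast sum, a measure chosen after the values were seen. That sum was mostly Gsn (means of 1660 CPM in shCtrl and 1263.5 CPM in shAtf3) and Dcn (1103 and 856 CPM). The next largest marker, Lum, was at 180 and 141 CPM. The ratios therefore weigh Gsn and Dcn most, and whether they adjust for fibroblast content was not tested. Per 1000 CPM of fibroblast markers, Ltbp2 was at 22.2, 18.0 and 14.7 in shCtrl and at 9.78, 9.66 and 8.94 in shAtf3. These 2 sets of values did not overlap. Ltbp3 was at 17.4, 17.5 and 22.0 against 17.6, 16.9 and 19.3, and Tgfb3 at 11.2, 9.9985 and 11.9 against 9.51, 8.03 and 10.99, and both overlapped.

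**Figure D5:**
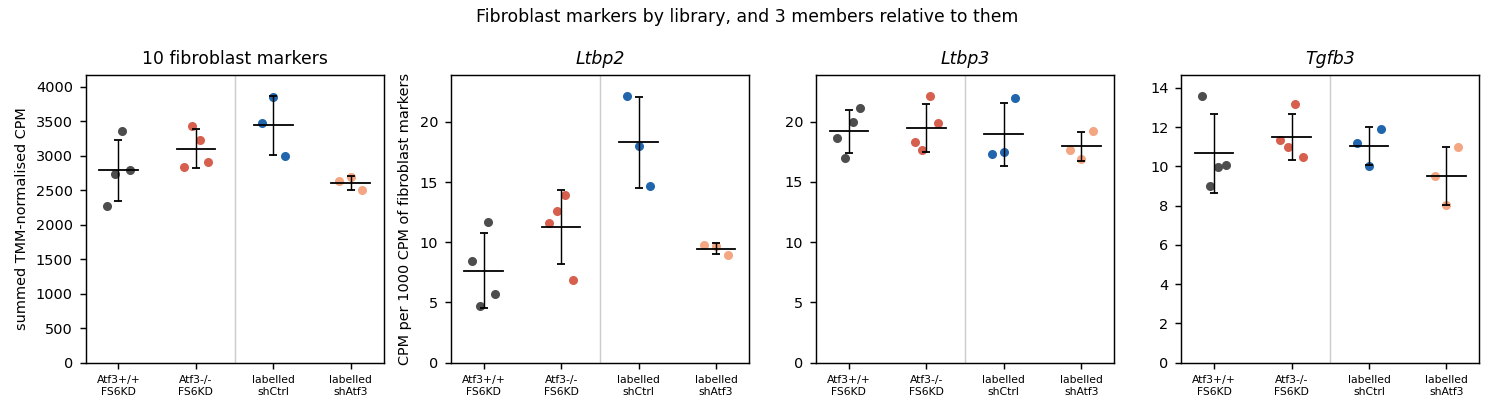
Summed CPM of the 10 fibroblast markers (first panel, y axis from 0) and CPM of Ltbp2, Ltbp3 and Tgfb3 per 1000 CPM of those markers (other panels) in each library (points), with the mean and SD of each group (lines). Relative to the summed markers, mostly Gsn and Dcn, Ltbp2 was at 14.7 to 22.2 in shCtrl and 8.94 to 9.78 in shAtf3. Ltbp3 and Tgfb3 overlapped.

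Ltbp2 and Tgfb3 varied most over the 14 libraries (SD of 0.71 and 0.28 on the log2 CPM scale, centred on each experiment), and the 3 genes with the most similar profile to each are given. Among 13370 genes, those nearest to Ltbp2 were Cilp, a matricellular protein of cartilage and heart, at a root mean square difference of 0.15, Fmod at 0.18 and the collagen gene Col8a2 at 0.20, beside a median of 0.70 over all genes. Nearest to Tgfb3 were the lysyl oxidases Loxl2 (0.09) and Loxl3 (0.11) with Col5a1 (0.10) between them, beside a median of 0.30. Ltbp2 and Tgfb3 lie 1.18 Mb apart on chromosome 12. Of the 20 genes tested between them 0 were called in the AAV experiment, against 0.539% of all genes, and 1 had an unadjusted p below 0.05, against 12.7%.

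Counts behind the 10 genes were ample, from 395 for Tgfb2 to 71616.5 for Ltbp4 in a library. None of the 10 has a copy on an alternate locus in the tables. Whether reads were counted by strand is not given in the sources used here, and exons of some overlap a gene on the other strand: D030025P21Rik shares 9.34% of the merged exons of Ltbp2, Gm48008 and Gm37804 7.60% and 4.82% of those of Tgfb3, and Gm29491 2.14% of those of Tgfb2. Reads in the shared stretches cannot be told apart, and likewise those of Tgfbr3 and Gm43422, which overlap on 1 strand by 4.54%.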

How the data were processed

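TruSeq Stranded mRNA libraries had been made from whole-heart RNA. For the knockout experiment the study gives NovaSeq single-end sequencing. The submitters' processing notes name GRCm38.p6 and featureCounts 2.0.0, and the aligner is not given in the sources used here. The authors deposited 2 tables of estimated counts (1 per gene in each library), not normalized and not pooled. In each library 19.3% to 24.4% of these were fractional. They were rounded to whole numbers, although whole counts had been assumed when the tests were set. All per-sample columns were used (0 left out).

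Groups followed the GEO labels. Any gene that exceeded 1 CPM in 1 or more libraries of a comparison entered edgeR's two-sided quasi-likelihood F-test after TMM scaling (edgeR 4.0.16, R 4.3.3), and p-values were adjusted by Benjamini-Hochberg over all genes tested (threshold 0.05). CPM are TMM-normalised, ± is the SD or, for log2 fold changes, the SE (the fold change divided by the square root of F), with 95% intervals from the t distribution at the fit's total degrees of freedom. Alternatives were library size alone, DESeq2 1.42.0, no filter, filterByExpr, limma-trend (limma 3.58.1), merged copies, a replicate block, depth batch as a term, values within batches and leaving out each library. The fits were checked on simulated counts with known changes. No 2 replicates agreed within sampling noise.

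Lengths came from the GENCODE annotation of GRCm38 and promoters from RefSeq. The text names the 10 genes, Atf3, Ndufs6, list genes past the threshold or among the 4 smallest p of a list, and the 3 genes nearest in profile to each of the 2 most variable members. List genes named because their groups did not overlap, and single markers, were chosen after their values were seen. The members and lists were chosen with earlier results of these data known.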

Additional observations from a re-analysis of the deposited data

Results flagged for a closer look

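Atf3 in the libraries labelled Atf3+/+FS6KD was flagged because 1 library stood far from the others: replicate 1 was at 25.8 CPM and the other 3 at 6.36 to 6.91 CPM, a gap of 0.972 of the whole range and above Dixon's critical value for 4 libraries. Without it the Atf3 log2 fold change in the knockout comparison was 1.89. None of the 10 TGF-beta genes was flagged in this way, among 24 sets of 4 libraries tested, of which chance flags about 1 in 20.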

How the results depend on the processing

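The count of TGF-beta genes called in the AAV experiment, 3, was 4 with DESeq2 or no filter (Ltbp4 in addition), 1 with the replicate block and 0 to 3 when single libraries were left out. For the interaction the count of 0 became 1 with library size alone, 3 with DESeq2, 1 with no filter and 0 to 2 when single libraries were left out. In the pathway lists of the AAV experiment 14 calls became 24 with DESeq2, 29 with no filter, 5 with the replicate block and 0 to 30 when single libraries were left out, and in those of the knockout experiment 0 became 9 with DESeq2. The knockout count of 0 among the 10 genes was the same in all alternatives run. The cause of these shifts was not tested.

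Replicate numbers did not pair the libraries: same-numbered libraries correlated at 0.01 to 0.14 in the knockout and 0.00 to 0.15 in the AAV experiment, and not every pair exceeded 0.1. With the replicate block Ltbp2 had an adjusted p of 0.0220, Ltbp3 0.0659 and Tgfb3 0.0800.

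Under the other alternatives, apart from the exchange of the AAV labels given last, directions turned only for values near 0 that passed no test. Within replicates 3 and 4 the knockout log2 fold change was -0.045 for Tgfb2, 0.068 for Tgfbr3 and -0.017 for Ltbp4. In the AAV experiment, library size alone gave -0.033 for Tgfb1 and -0.0094 for Ltbp1. When single libraries were left out, values ran from -0.026 to 0.32 for Tgfb2 and -0.085 to 0.18 for Ltbp4 in the knockout experiment, and from -0.044 to 0.075 for Tgfb1, -0.027 to 0.15 for Tgfbr3 and -0.050 to 0.088 for Ltbp1 in the AAV experiment. With the AAV labels exchanged, an alternative added after the data were seen, the interaction turned for 6 genes: Tgfb2 -0.079, Tgfb3 -0.32, Tgfbr1 -0.022, Ltbp2 -0.68, Ltbp3 -0.29 and Ltbp4 -0.30. None of the 6 passed in the main edgeR fit or in the exchanged one. Without the exchange, Tgfb3 (0.89), Ltbp2 (2.04) and Ltbp3 (0.63) were not near 0 and passed with DESeq2 (adjusted p = 0.00068, 0.0194 and 0.0489).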
